A study of Mus musculus with 18 samples.

Results

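The hotspots described here are the autosomal sites of meiotic double-strand breaks in testes of C57BL/6J (B6) males whose 2 copies of the Prdm9 gene were both humanized (Hum/Hum). For each site the DMC1 signal, called heat, was set against the H3K4me3 enrichment measured in a 1 kb bin centred on it. A site was kept if its bin did not overlap an H3K4me3 peak that the authors marked as probably independent of PRDM9, and if the bin held at most 390 input fragments, 10 times the median. Of 15515 autosomal hotspots, 14237 met this rule (91.8%), and they carried 90.8% of the autosomal heat. The left-out sites were 1247 marked bins and 31 further bins over the input limit. Heat per unit of enrichment, the ratio used throughout, could be formed for 13921 members. The other 316 had an enrichment of 0 (312) or no value (4), and their median heat was 19.1.

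PRDM9 is a histone methyltransferase of early meiotic prophase whose zinc fingers choose DNA sites and whose catalytic domain places H3K4me3 on the nucleosomes beside them. Some of the marked sites are then cut by SPO11. The resected single-stranded ends are coated with DMC1, the meiotic recombinase that searches the homologous chromosome for a repair template, so a DMC1 ChIP signal reflects both how often a site is cut and how long DMC1 stays on it. In the humanized mouse the zinc fingers are those of a human PRDM9 protein, and hotspots move to other sequences than in wild-type B6.

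The series profiled whole adult testes of B6 males, of PWD males and of hybrids of B6 with PWD or CAST, with different Prdm9 genotypes. It also holds genomic DNA of PWD spleen. The members rest on 3 libraries: 1 DMC1 library from testis of Hum/Hum males aged about 10 weeks, 1 H3K4me3 library and 1 input library of the same genotype. The H3K4me3 reads came from 1 biological replicate (70 to 80 M usable read pairs) that the authors divided into 2 pseudoreplicates. Used beside these were DMC1 maps of B6 males carrying 1 B6 and 1 humanized allele (B6/Hum) and of B6/B6 males, and the tables of 3 F1 hybrids. The B6/Hum and F1 males of the DMC1 maps were also aged about 10 weeks. The B6/B6 DMC1 map is a re-analysis, deposited with the series, of a library made by other submitters. The H3K4me3 data of each hybrid come from 2 biological replicates, which the authors joined in 1 enrichment value. The rescue F1 came from PWD mothers and B6 fathers and had 1 PWD and 1 humanized Prdm9 allele. In the infertile F1, from the same cross, the humanized allele was replaced by that of B6. The reciprocal F1 came from B6 mothers and PWD fathers and had both wild-type alleles. Whole testis mixes meiotic cells with other cells, so fewer marked cells and less mark per cell cannot be told apart. With 1 Hum/Hum library of each kind there is no replicate error for the members and no test between groups was possible. The 95% intervals given below cover the counting of hotspots only (order-statistic intervals for medians, Wilson intervals for shares). For a quotient of 2 medians, the low end of one interval was divided by the high end of the other, and the reverse. Such an interval is wider than a 95% interval.

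The map was checked against its label with the degenerate 13-base hotspot motif known for the common human PRDM9 zinc fingers, searched on both strands. Within 300 bp centred on the hotspot, 14.0% of the 14237 members held a match (95% interval 13.4 to 14.6). Windows of the same length 5 kb to either side held one in 2.86% and 2.81%, windows every 100 kb of the autosomes in 2.45% of 23960, and the hotspots of B6/B6 males in 1.94% of 16974. Matches were packed around the centre of the humanized hotspots, with 2.84 per 100 members in the densest 50 bp class and a mean of 0.525 per 100 beyond 1000 bp. No such packing was seen at B6/B6 hotspots, where the classes within 100 bp of the centre averaged 0.327 per 100 against 2.69 in Hum/Hum.

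**Figure D1:**
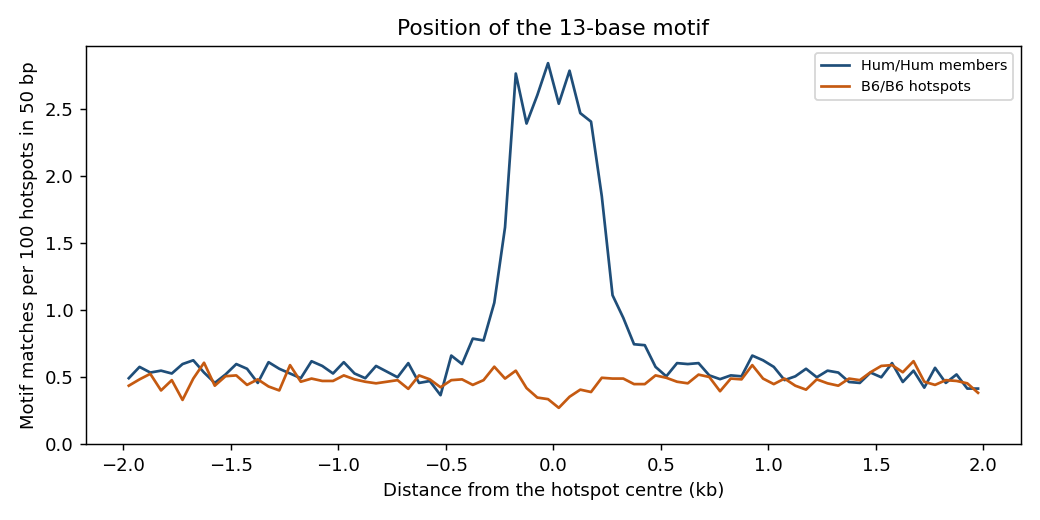
Matches to the 13-base motif on either strand per 100 hotspots in 50 bp classes (y axis) by distance from the hotspot centre in kb (x axis), for the 14237 Hum/Hum members and the 16974 autosomal hotspots of B6/B6 males. The Hum/Hum line rises to 2.84 near the centre and stays between 0.414 and 0.625 beyond 1000 bp, while the B6/B6 line shows no rise at the centre.

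The sequences below show what such sites look like, at the 3 hottest motif-holding members and at 4 with extreme ratios. They were taken from the GRCm38.p6 assembly, whose coordinates are those of mm10, over 93 bases around the motif and on the strand that carries it. The motif is in capitals. Members with under 20 input fragments were left out of this choice, and members for the extremes had an enrichment at or above the members' median.
Chd7, minus strand of chr4:8811161-8811253, an intron: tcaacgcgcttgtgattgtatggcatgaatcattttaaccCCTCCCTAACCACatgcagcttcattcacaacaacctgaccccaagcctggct
Arhgef3, minus strand of chr14:27151804-27151896, an intron: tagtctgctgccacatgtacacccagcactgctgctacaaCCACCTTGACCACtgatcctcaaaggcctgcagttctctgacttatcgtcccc
A330058E17Rik, minus strand of chr5:74176010-74176102, a non-coding exon: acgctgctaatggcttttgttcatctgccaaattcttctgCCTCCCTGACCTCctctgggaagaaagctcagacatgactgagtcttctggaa
Rims1, minus strand of chr1:22316469-22316561, within 1 kb of a start site: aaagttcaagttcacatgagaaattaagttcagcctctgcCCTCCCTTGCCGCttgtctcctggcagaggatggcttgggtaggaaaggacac
Gm7332, plus strand of chr5:9241814-9241906, between genes: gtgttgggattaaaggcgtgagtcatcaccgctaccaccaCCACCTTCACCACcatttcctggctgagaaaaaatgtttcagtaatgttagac
Gm17152, plus strand of chr14:4141177-4141269, an exon: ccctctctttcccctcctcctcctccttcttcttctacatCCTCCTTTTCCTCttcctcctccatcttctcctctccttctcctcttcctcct
AC113491.1, plus strand of chr19:54108294-54108386, between genes: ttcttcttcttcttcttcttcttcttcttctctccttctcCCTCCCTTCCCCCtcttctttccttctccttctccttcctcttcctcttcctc

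The hottest of these, in Chd7 (a chromatin remodeller gene), had a heat of 645 over an enrichment of 2.34, which gave 275 heat per unit. Its bin held 118 and 102 ChIP fragments in the pseudoreplicates against 42 in the input. At Arhgef3, a guanine-nucleotide exchange factor gene, heat was 591 and the ratio 225. The site at Rims1, which encodes a presynaptic scaffold protein, had the highest ratio among motif-holding members of this choice (331), with a heat of 303 over an enrichment of 0.914. At the other extreme, the sites at Gm17152 and AC113491.1 had ratios of 9.34 and 9.71. Their heats were 12.6 and 22.6, and their enrichments 1.35 and 2.33. Both sequences are pyrimidine-rich runs, and RefSeq marks 100% of their bases as repeats or low complexity. At Chd7, Arhgef3, A330058E17Rik and Rims1 it marks 0%, and at Gm7332 52.7%.

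Heat was higher where enrichment was higher, and the fitted increase was less than in proportion. Over the 13921 members the median heat was 56.6 (quartiles 30.6 and 118), the median enrichment was 0.832 (quartiles 0.396 and 1.62) and the median ratio was 81.1 heat per unit (79.9 to 82.1). The quartiles of the ratio were 50.3 and 132, and 5% of members lay below 24.4 and 5% above 324. Spearman's rho of heat and enrichment was 0.712 across these hotspots, which share 1 DMC1, 1 H3K4me3 and 1 input library. A least-squares line of log heat on log enrichment had a slope of 0.52. The reduced major axis slope, the SD of log heat over that of log enrichment, was 0.78. The part of counting error and of the lowest callable heat in these slopes was not tested. From the lowest to the highest decile of enrichment the median heat went from 24.9 to 207. The median ratio was 270, 121, 88.3 and 73.7 in the first 4 deciles and between 58.6 and 68.2 in the other 6.

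The ratio of weakly marked sites is the least certain of these values. The lowest heat in the map was 10.9, and 27.1% of members in the lowest decile of enrichment had a heat under 20. The counting error of enrichment, from the ChIP and input fragments of the bin, was 89.9% at the median of that decile and 28.4% over all members. When 1 pseudoreplicate placed the members in deciles and the other gave the H3K4me3 signal, summed heat over summed signal went from 287 in the lowest to 55.2 in the highest decile of all members. Among members above background in both pseudoreplicates it went from 183 to 54.5. The signal in these splits is a ChIP count less a background scaled by the bin's input, and is not divided by local input. Both pseudoreplicates share that input count, so their errors are not fully independent. Among the 7117 members with enrichment at or above the members' median of 0.809, termed the more strongly marked members below, the slope was 0.81, rho was 0.536 and the median ratio 64.9 (63.6 to 66.1). In that set the ratio had an SD of 0.97 on the log2 scale, whereas the H3K4me3 signal differed between the pseudoreplicates with an SD of 0.36 on that scale. That second value covers the sampling of fragments from 1 library and no difference between animals.

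**Figure D2:**
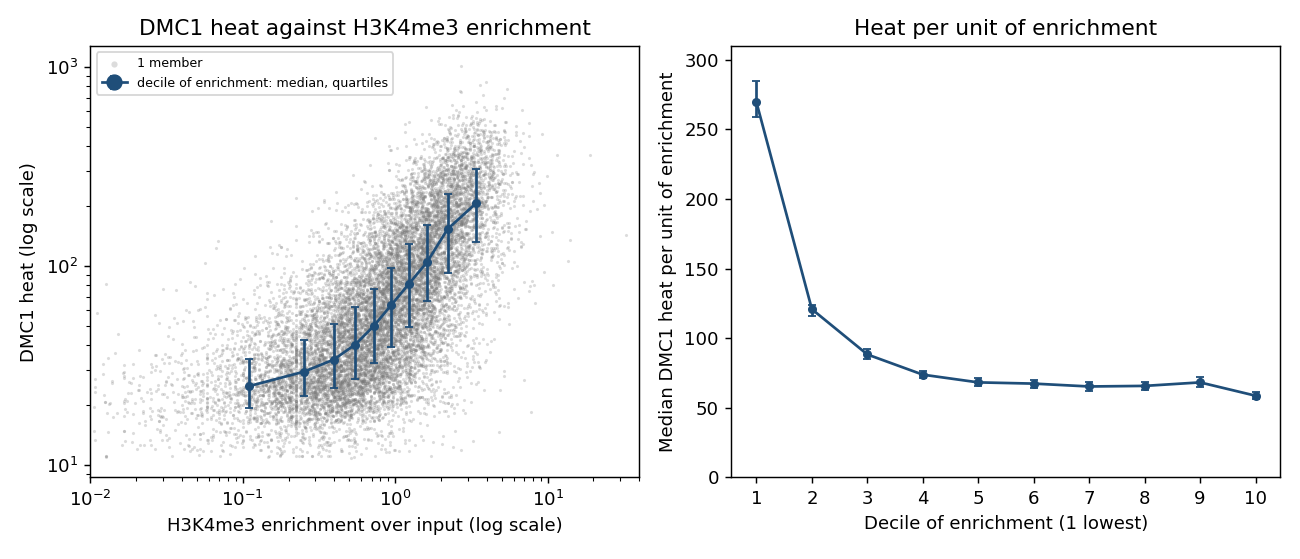
Left, DMC1 heat (y axis, log scale) against H3K4me3 enrichment over input (x axis, log scale), 1 grey dot per member, with the median heat and quartiles of each decile of enrichment (49 members with an enrichment under 0.01 are not drawn). Right, median heat per unit of enrichment by decile of enrichment with 95% intervals, which goes from 270 in decile 1 to 58.6 in decile 10.

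Individual hotspots showed how far heat and mark could part. The hottest member lay 4312 bp outside Phtf2 (chr5:20754351), with a heat of 1017 over an enrichment of 2.69 and a ratio of 378. The next was in an intron of Gm47771 (chr10:17565281), with a heat of 841, an enrichment of 3.94 and a ratio of 214. Neither holds the motif in 300 bp, and 15 of the 100 hottest members did. In an intron of Cfap54 (chr10:93007643), a gene for a cilia and flagella protein, heat was 777 over a stronger enrichment of 5.41, and the ratio was 144.

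Among the 5563 members at or above the median both in enrichment (0.832) and in ChIP fragments (80), the ratio ran from 2.36 to 445. The highest was 63266 bp from Gm44515 (chr8:8995965), where a heat of 520 stood on an enrichment of 1.17 with 58 and 69 ChIP fragments over 44 input fragments. In an intron of Smco4 (chr9:15496655) heat was 400 over 0.917, a ratio of 436, and in an exon of Impa1 (chr3:10315327), the inositol monophosphatase gene, it was 526 over 1.22, a ratio of 430. At the low end, an intronic site of Cdh5 (chr8:104113898), the endothelial cadherin gene, had a heat of 11.9 over an enrichment of 2.70 and a ratio of 4.41. Its enrichment rests on 121 and 123 ChIP fragments over 41 in the input. The lowest ratio, 2.36 in A830018L16Rik (chr1:11483944), rests on 6 input fragments, and the highest enrichment of all, 32.7 at Gm31415 (chr3:49070735), on 2.

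The ratio differed little between most autosomes and stood apart on a few. The highest chromosome median was 97.5 on chromosome 16 (90.8 to 108, 504 members), followed by 94.6 on chromosome 3 (89.0 to 99.6, 777 members) and 91.3 on chromosome 12 (85.8 to 100.3, 690 members). The lowest were 64.5 on chromosome 19 (60.1 to 72.0, 393 members) and 69.5 on chromosome 17 (64.1 to 74.2, 518 members). The intervals of 3 chromosomes lay above the autosomal median and those of 4 below it, and 12 held it. Highest over lowest was 1.51 (1.26 to 1.79), and 1.58 when only the chromosome interiors were used. These quotients take the extremes of 19 medians, so they are above 1 by construction, and the interval does not allow for that choice.

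Chromosomes 16 and 19 differed in opposite parts of the ratio. Chromosome 16 had a high median heat (68.4 against 56.6 over all members) at a median enrichment of 0.832, the same as over all members. Chromosome 19 had the highest median enrichment of the autosomes, 1.03, at a median heat of 53.8. The median input count was 37 and 40 on these chromosomes against 38 over all members. Among the more strongly marked members chromosome 16 was again highest, at 82.6 (76.2 to 91.9), and chromosome 19 again lowest, at 52.1 (46.5 to 59.7).

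The shift touched the tails as well as the median. Over all members, 17.4% had a ratio over 2 times the autosomal median and 16.4% had one under 0.5 times that median. On chromosome 16 these shares were 23.6% and 11.9%, and on chromosome 19 they were 10.4% and 24.7%. Chromosome 12 had 23.2% and chromosome 3 had 22.4% over 2 times the median. On chromosome 17 the share over 2 times was 10.6% and the share under 0.5 times was 22.2%.

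**Figure D3:**
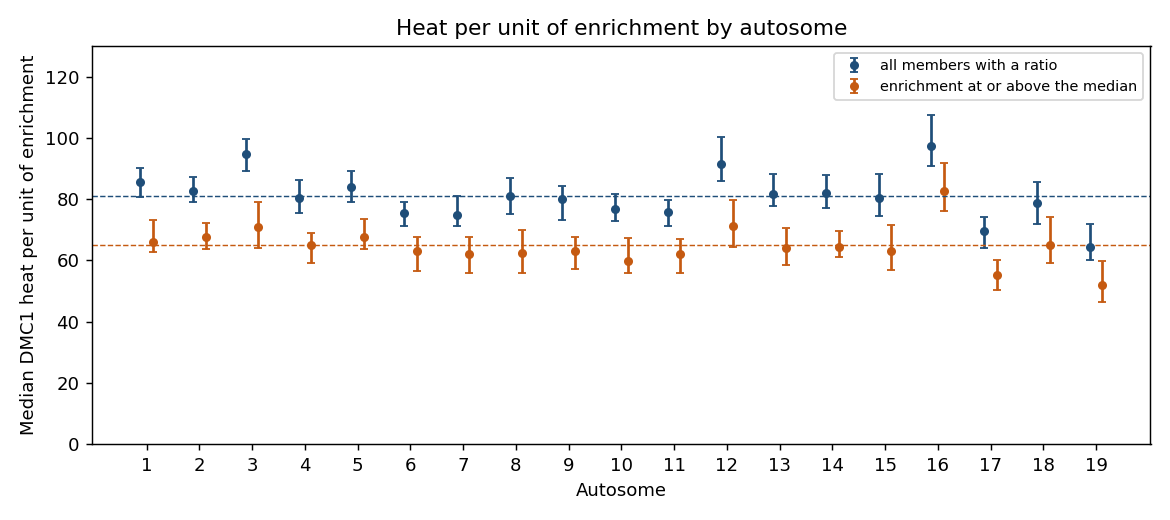
Median DMC1 heat per unit of enrichment (y axis) for each autosome (x axis), for all members with a ratio and for those with enrichment at or above the members' median, with 95% order-statistic intervals. Dashed lines mark the medians over all autosomes, and chromosome 16 stands highest (97.5) and chromosome 19 lowest (64.5).

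Chromosome length went with the ratio only loosely. Spearman's rho over the 19 chromosome medians was 0.340, and Pearson's r fell from 0.360 to 0.0850 without the 2 chromosomes whose lengths were farthest from the median. The chromosome medians went lower where median enrichment (rho -0.647), input (rho -0.501) and GC content (rho -0.489) were higher. Enrichment and input both enter the ratio, so these are descriptions of 19 points from the same libraries. The grouping by chromosome accounted for 1.05% of the variance of log2 heat once each member was set against members of like enrichment. On the same measure 10 Mb classes along the chromosome accounted for 3.18%. Quintiles of input accounted for 5.00%, of GC content for 1.92% and of distance to the nearest other hotspot for 0.868%.

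Along the chromosome the ratio was highest next to the centromere. Mouse autosomes are telocentric, so position was counted from 3 Mb, where the assembled sequence begins. In the first 10 Mb the median ratio was 123 (116 to 132, 1061 members), against 78.7 in the interior (77.3 to 80.0, 11579 members) and 79.3 in the last 10 Mb (75.8 to 82.8, 1281 members). Proximal over interior was 1.57 (1.45 to 1.71), and the proximal median was above the interior one on 19 of 19 autosomes, by 1.02 to 2.75 times. The share of members over 2 times the autosomal median was 37.5% proximally and 15.3% in the interior.

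Both parts of the ratio moved near the centromere. Median heat was 66.3 in the proximal 10 Mb and 56.5 in the interior, and median enrichment was 0.654 and 0.850. Since the ratio is higher where enrichment is low, heat was also divided by the median heat of members in the same twentieth of enrichment. By this relative heat the proximal excess was 1.34 times, on 18 of 19 autosomes. Among the more strongly marked members it was 1.35 times (86.6 against 64.2), on 16 of 19 autosomes. Median input was 34 proximally and 37 in the interior, and within each of 5 classes of input the proximal median was above the interior one, by the least in the lowest class (71.2 against 58.7).

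The decline continued beyond the first 10 Mb. The median ratio was 145 in the first 2 Mb, 119 from 2 to 5 Mb and 122 from 5 to 10 Mb. It was 107 from 10 to 20 Mb, 87.3 from 20 to 30 Mb, 83.2 from 30 to 50 Mb and 74.4 farther on. Among the more strongly marked members the first 2 Mb did not stand highest. Their medians in the same classes were 79.2, 89.8, 86.6 and 84.4 up to 20 Mb, then 69.5, 68.8 and 60.2. When each autosome was divided in 10 equal parts from the centromere on, part 1 had a median of 127. It was above the median of its own chromosome on 19 of 19 autosomes and the highest of the 10 parts on 12. The lowest medians, 68.1 and 67.7, were in parts 8 and 9.

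The distal end was uneven. The median ratio was 86.0 from 5 to 10 Mb before the end, 68.4 from 2 to 5 Mb and 57.6 in the last 2 Mb (42.6 to 92.4, 142 members). Among the 78 more strongly marked members of the last 2 Mb it was 32.5 (25.9 to 42.6). Both tails were larger over all 142 members. Of them 26.8% were over 2 times the autosomal median and 40.1% under 0.5 times it, against 15.3% and 16.7% in the interior. Of 12 autosomes with at least 5 members there, 9 were below their own interior. Chromosome 4 gave 26 of the 142, and without it the median was 42.0. Of these members 6.34% lay in bins at least 50% repeat-masked, against 7.93% of all.

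Chromosome 16 departed from the common profile over a broad stretch. In its parts 7, 8 and 9 the medians were 127, 140 and 139, with 134 over the 85 members together (107 to 166). The same parts of the other 18 autosomes had 69.3 together, and between 57.9 and 81.7 chromosome by chromosome. The rest of chromosome 16 had 93.9 (86.5 to 100.1). Median input in the stretch was 24, and among its more strongly marked members the median ratio was 90.7 against 58.4 elsewhere. The stretch was chosen after these values were seen.

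**Figure D4:**
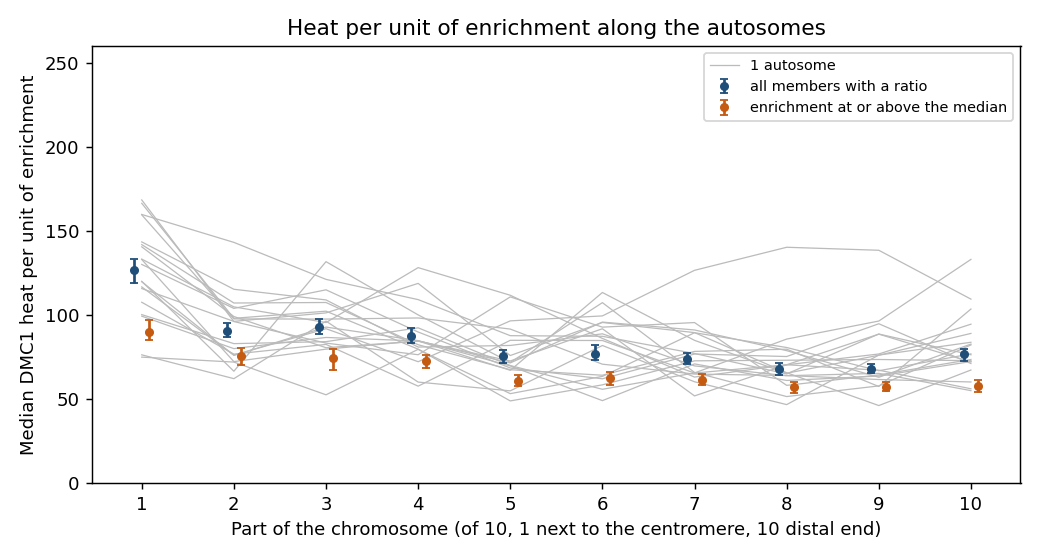
Median DMC1 heat per unit of enrichment (y axis) by part of the chromosome (10 equal parts) from the centromere to the distal end (x axis), for all members with a ratio and for those with enrichment at or above the members' median, with 95% intervals. Grey lines are the 19 autosomes, and part 1 (127) stands above the others, with 1 grey line (chromosome 16) high again at parts 7 to 9.

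The distance to the nearest other hotspot of the map had a small association with the ratio, and its direction depended on how the mark was scaled. The median distance was 42.7 kb. Members under 5 kb from another hotspot had a median ratio of 94.6 (89.2 to 98.6, 992 members), those from 20 to 50 kb had 82.5, and those over 200 kb away had 69.8 (65.8 to 73.0, 1074 members). The most isolated quintile over the most crowded was 0.840 (0.792 to 0.903). Spearman's rho of distance and ratio was -0.0743 over the 13921 members.

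Input moved with distance too, from a median of 41 fragments under 5 kb to 25 over 200 kb, and GC content from 45.4% to 40.7%. Within 5 classes of input, isolated over crowded was 0.947, 1.02, 0.936, 0.877 and 0.787 from the lowest to the highest class. When the background-subtracted ChIP count of 1 pseudoreplicate, without division by local input, took the place of enrichment, the value was 1.18 for pseudoreplicate 1 and 1.15 for pseudoreplicate 2. The part of input in this result beyond these values was not tested. Input itself went with the ratio, which was 59.2 in the lowest class of input and between 82.7 and 94.5 in the other 4.

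Hot sites occurred at both extremes of spacing. A coding-exon site of Hdac2 (chr10:36998482), a histone deacetylase gene, lay 2.10 kb from another hotspot and had a heat of 620, an enrichment of 5.00 and a ratio of 124. An intronic site of Opn3 (chr1:175669876), an opsin gene, lay 317 kb from the next one and had a heat of 610, an enrichment of 2.51 and a ratio of 243.

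The repeat content of the bin went with the ratio. RefSeq marks repeats and low-complexity bases in lower case, and their median share of the 1 kb bin was 20.2%. From the least to the most masked quintile of members the median ratio went 90.3, 88.6, 83.6, 76.8 and 65.8 (63.7 to 67.8 in the last). In the more strongly marked members the same quintiles had 72.6, 73.6, 68.6, 62.8 and 48.9. Relative heat went from 1.09 to 0.822, so the decline was also present between members of like enrichment.

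The cold tail was rich in repeats. Bins at least 50% masked made up 17.9% of members under 0.5 times the median ratio (16.3 to 19.5), 6.34% of those between 0.5 and 2 times it and 4.63% of those over 2 times it. Among more strongly marked members whose relative heat was under 0.5, the share was 21.7% of 1196 (19.4 to 24.1), and among those with relative heat over 2 it was 1.72% of 871 (1.05 to 2.82). The repeat sequences printed above, at Gm17152 and AC113491.1, belong to the former set. Median input was 49 fragments in the least and 32 in the most masked quintile, and the part of input or of read placement in the pattern was not tested.

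**Figure D5:**
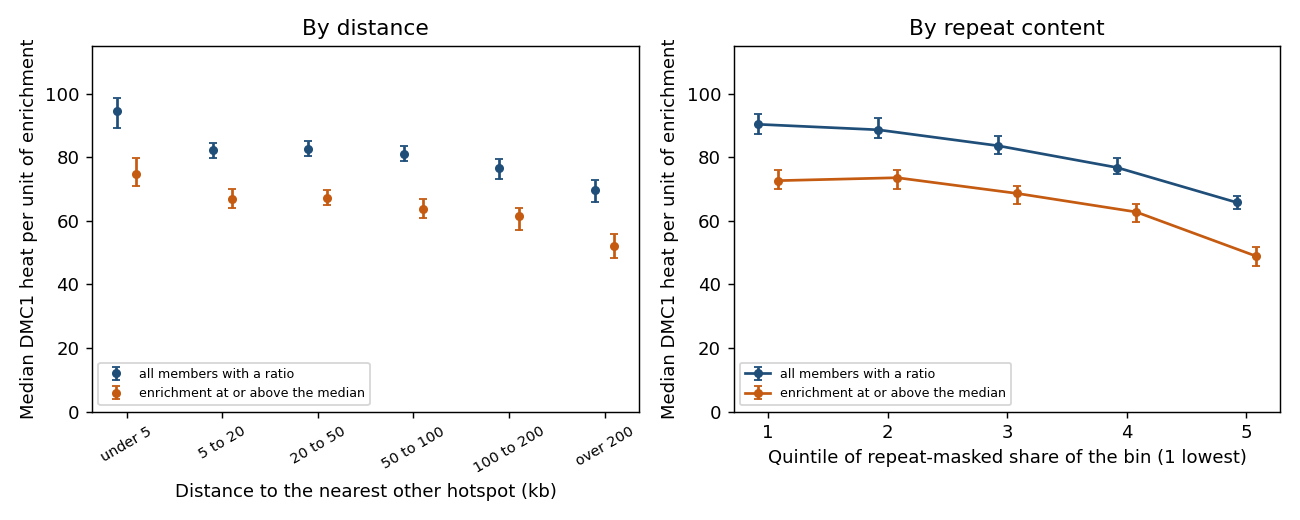
Median DMC1 heat per unit of enrichment (y axes) with 95% intervals, by distance to the nearest other hotspot in kb (left) and by quintile of the repeat-masked share of the 1 kb bin (right), for all members with a ratio and for those with enrichment at or above the members' median. Over all members it goes from 94.6 to 69.8 with distance and from 90.3 to 65.8 with repeat share.

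Motif-holding members were hotter and more strongly marked than the rest, and their ratio was slightly lower over all members but not among the more strongly marked ones. The motif was held by 11.3% of members in the lowest and 17.1% in the highest quintile of heat, and by 10.6% and 17.9% in the lowest and highest quintile of enrichment. Members with the motif had a median ratio of 75.3 (71.9 to 78.7, 1966 members) and those without it 81.8 (80.6 to 83.2, 11955 members). Among the more strongly marked members the values were 64.2 and 65.0, with overlapping intervals, and relative heat was 1.01 and 1.00.

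Among the members, the annotation around a hotspot made little difference to the ratio. By GENCODE, 53.8% of the 14237 members lay in introns, 38.7% between genes, 3.93% in other exons, 2.07% in coding exons and 1.46% within 1 kb of the start of a protein-coding transcript. The marked bins left out by the rule lay near such starts far more often than the members did. The last share is therefore that of the members and not of all hotspots. Whether the ratio differed by annotation with those bins kept was not tested. The 5 classes had median ratios between 78.7 (coding exons) and 87.0 (other exons), and the interval of each held the autosomal median.

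Of 43 genes on the autosomes that act in meiotic recombination, 11 held 13 members, with a median ratio of 71.1 (44.4 to 103) against 81.1 over all. None of the 13 was over 2 times the autosomal median and 2 were under 0.5 times it, where all members gave 17.4% and 16.4%. Mlh3 encodes a MutL protein needed for crossovers. The 2 members in Mlh3 introns, 1.71 kb apart on chromosome 12, had heats of 210 and 168 and ratios of 71.1 and 87.8. Dmc1, the gene of the recombinase itself, held 1 member, with a heat of 44.8 and a ratio of 15.9. It and the member in Tex15, at 31.5, were the 2 under 0.5 times the median. Syce1, for a synaptonemal complex protein, held 1 with the highest ratio of the list, 145. Dmc1, Tex15 and Syce1 were named after their values were seen.

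Long neuronal genes, which span much sequence, held 307 members in 53 of 55 genes. The 302 with a ratio had a median of 77.2 (71.2 to 83.0). Of these, 45 were over 2 times and 52 under 0.5 times the autosomal median, where all members gave 17.4% and 16.4%. Auts2 held 16 members with a median ratio of 71.6. Its hottest (chr5:131917740) holds the motif, and had a heat of 514 over an enrichment of 1.93. The hottest of this list, in Tenm3 (chr8:48743001), a teneurin gene, had a heat of 534 and a ratio of 280.

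As the homozygous reference, Hum/Hum shared its proximal excess with the other tables and differed from most in its chromosome order. Each table has its own scale, so only ratios within tables are given. Proximal over interior was 1.57 in Hum/Hum, 1.80 in B6/B6, 1.52 in the rescue F1, 1.33 in the infertile F1 and 1.36 in the reciprocal F1. Distal over interior was 1.01 in Hum/Hum, 1.52 in B6/B6, 0.934 in the rescue F1, 1.04 in the infertile F1 and 1.38 in the reciprocal F1. Per the labels, the B6/B6 H3K4me3 table used the Hum/Hum input library. Highest over lowest chromosome was 1.51 in Hum/Hum, 1.67 in B6/B6, 1.81 in the rescue F1, 2.62 in the infertile F1 and 2.44 in the reciprocal F1. Chromosome 19, lowest in Hum/Hum at 0.795 of the table's median, was highest in the infertile and reciprocal F1 and stood at 1.21 in B6/B6.

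The humanized allele could be followed at the same sites in other males. Of the 13921 members, 10371 (74.5%) lay within 1000 bp of a hotspot of B6/Hum males. These were the hotter and more strongly marked sites. Their median Hum/Hum heat was 80.3 and enrichment 1.13, against 24.9 and 0.322 in the 3550 not shared. The median ratios were 81.3 and 80.4. B6/Hum heat was set over the Hum/Hum enrichment, so the denominator is that of the main ratio. Places that rest on enrichment, such as the high median enrichment of chromosome 19, therefore carry over by construction. On this measure chromosome 16 was highest and chromosome 19 lowest. The proximal median was 1.45 times that of all shared sites, against 1.50 for Hum/Hum heat. The rescue F1 has its own heat and enrichment. It shared 7242 sites, with a median Hum/Hum heat of 113 and enrichment of 1.47. In the rescue F1 the proximal value was 1.50 times that of all shared sites, and 1.44 for Hum/Hum at these sites.

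At those 7242 sites some chromosomes held like places in both tables and others did not. Chromosome 16 was at 1.31 of the median in the rescue F1 and 1.19 in Hum/Hum, and chromosome 17 at 0.848 and 0.829. Chromosome 19 was at 1.20 in the rescue F1 (ratio 81.7, 72.5 to 87.0) and 0.817 in Hum/Hum (67.1, 60.3 to 74.9), and chromosome 9 at 0.726 and 1.01. Spearman's rho of the site ratios was 0.507 over the 7242 sites.

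The rescue F1 also separates sites by the chromosome that carried DMC1. Sites where 0.1 to 0.9 of DMC1 reads came from the B6 chromosome, used on both, had a median ratio of 66.0 there (64.4 to 67.4, 4596 sites), and sites above that share 90.2 (85.3 to 94.6, 1353 sites). The same sites in Hum/Hum males, where both chromosomes are B6, had 84.2 (82.4 to 86.0) and 82.5 (78.7 to 85.8). The intervals of these classes overlapped in Hum/Hum and did not in the rescue F1. Median enrichment differed between the classes in the rescue F1 as well (1.20 and 0.875), and was 1.51 and 1.68 in Hum/Hum. Sites below that share, used on the PWD chromosome, had 91.1 in the rescue F1 and 80.1 in Hum/Hum (245 sites), and sites with no share given had 52.2 and 72.1 (1048 sites).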

How the data were processed

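No reads were processed here, and the hotspots and gene lists were chosen with earlier results of these data known. Per the submitters' processing notes, BWA, SAMtools and bedtools were used and the builds were mm10 and mm9; the mm10 files were used. DMC1 heat is a relative signal deposited by the authors, and its definition is not given in the sources used here. Per the file headers, the counts are ChIP and input fragments overlapping each 1 kb bin, the enrichment is a maximum-likelihood ratio over local background with a minimum of 0, and the deposited p-value compares that enrichment with 0 by likelihood ratio. The deposited enrichment equalled the mean over pseudoreplicates of ChIP over input fragments minus 0.275, within 0.00683, so input counts enter the denominator. For the hybrids the authors deposited, per hotspot, the fraction of DMC1 reads assigned to B6, and 0.1 to 0.9 was taken as both chromosomes used.

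Heat was joined to the bin centred on it, at 1000 bp for matches between maps. Members summed to 777789 and 779167 ChIP and 573353 input fragments, with medians of 39, 39 and 38. The ratio needs an enrichment above 0. The DMC1 depth is not given in the sources used here. Named hotspots were the 5 hottest, the 5 with the highest enrichment, the 5 highest and 5 lowest ratios among members at or above the median of enrichment and of ChIP count, and the hottest of chromosomes, spacing classes and lists; a part of these is printed, and some items are not reported here. Genes came from the GENCODE annotation and sequences from RefSeq GRCm38.p6, whose chromosome lengths equal mm10. The repeat share and the printed sequences were chosen after other values were seen. Python 3.11.15, pandas 2.3.3 and SciPy 1.17.1 were used. The functions were tested on simulated heat in proportion to enrichment, without counting error of enrichment or a heat threshold. That test does not cover recovery where such error or a threshold is present.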

Additional observations from a re-analysis of the deposited data

Results flagged for a closer look

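This signal lies in data that the report's comparisons do not use. The X chromosome lies outside the autosomal rule, and its hotspots have no Hum/Hum DMC1 value among the members. At 542 X bins of the Hum/Hum H3K4me3 table within 1000 bp of a B6/Hum hotspot, B6/Hum heat per unit of Hum/Hum enrichment had a median of 124 (106 to 138). The chromosome numbered 20 in the B6/Hum map was read as X, since 60.1% of its hotspots lay within 1 kb of an X bin and at most 2.40% within 1 kb of a bin of any autosome number. On the autosomes the same measure was 57.6 (56.6 to 58.6) at 10371 sites, so X over autosomes was 2.14 (1.81 to 2.44). Median B6/Hum heat was 63.9 on X and 52.5 on the autosomes, median enrichment 0.788 and 1.13, and median input 13.5 and 38 fragments. The X is present in 1 copy in males. Enrichment is divided by local input, which was lower on X, while no adjustment of heat for copy number was made here. The part of copy number in the difference was not tested.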

How the results depend on the processing

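No paired analysis was possible because the Hum/Hum DMC1 and H3K4me3 data each come from 1 library, with no replicate to pair or to leave out, and the DMC1 depth is unknown. For quotients of medians the interval is the wider one defined above. Of 117 alternative values, 79 stayed within the interval of the reported value, 36 moved outside it, and 2 did so with a change of direction. Both of these concern isolated over crowded hotspots (0.840), which became 1.18 and 1.15 when the background-subtracted count of pseudoreplicate 1 or 2 stood in for enrichment; that count is not divided by local input. It stayed below 1 in the other 13 alternatives. Distal over interior (1.01), whose interval holds 1, kept its side of 1 in 3 of 13 alternatives (0.802 to 1.05), so no direction is given for it. The proximal excess was above 1 in all 13 of its alternatives (1.32 to 1.64), and the slope was positive in its 7. For highest over lowest chromosome, leaving out chromosome 16 gave 1.47 and leaving out chromosome 19 gave 1.40. Leaving out any other chromosome cannot change this value (1.51), and those fixed outcomes are counted among the 79.

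With the counts of pseudoreplicates 1 and 2, the median ratio became 89.3 and 90.4, rho 0.675 and 0.676, the slope 0.48 and 0.48, the highest over the lowest enrichment quintile 0.273 and 0.267 (0.363 as reported) and distal over interior 0.812 and 0.802 (1.01 as reported). With pseudoreplicate 2, highest over lowest chromosome became 1.81. With the marked bins kept, the median was 77.6, rho 0.680, the slope 0.49 and the enrichment quintiles 0.344. With a deposited p-value under 0.001, they were 70.6, 0.652, 0.74 and 0.685, and proximal over interior was 1.42. With heat at or above the autosomal median, the median was 90.0, rho 0.578 and the slope 0.41. Summed heat over summed enrichment gave 77.6, and 1.39 for proximal over interior.

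Relative heat gave 1.34 for proximal over interior. Chosen after seeing the data, heat relative to members of like enrichment and input gave 1.32, and 0.947 for distal over interior. Also chosen then, the more strongly marked members gave a median of 64.9, a proximal excess of 1.35, a distal value of 0.927 and isolated over crowded of 0.789. Distal ends of 5 and 20 Mb gave 0.835 and 0.938. The motif share was 9.52% in 200 bp and 21.2% in 500 bp. The cause of these moves was not tested.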
